A study of Mus musculus with 12 samples.

Results

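The Hox genes encode homeodomain transcription factors that give cells along the head-to-tail axis their regional identity, and they were followed here in mouse rib cartilage cells. The 37 genes were every row of a table of 17922 genes whose symbol consisted of Hox, a cluster letter from a to d and a number: 11 genes of cluster a, 10 of cluster b, 8 of cluster c and 8 of cluster d. RNA was sequenced from 12 samples in 4 groups of 3. The LDH knockout came from mice at postnatal day 5 (P5) that carried Col2-Cre, a recombinase driven by the type II collagen promoter of cartilage cells, together with Ldha fl/fl and Ldhb+/-, and it was set against its own controls from littermates at P5. The Acly knockout came from mice at embryonic day E18.5 that carried Col2-Cre and Acly fl/fl, and it too was set against littermate controls. All mice were of a mixed strain in which C57BL/6 was dominant, and the alleles the controls carried were not given beyond the word control. Ldha and Ldhb encode the subunits of lactate dehydrogenase, which turns pyruvate into lactate at the end of glycolysis, and Acly encodes ATP citrate lyase, which makes acetyl-CoA in the cytoplasm. Rib cartilage was digested with collagenase, and the freed cells were plated and cultured overnight before lysis. Nothing in the labels says whether a sample was 1 animal or a pool, so p-values measure the spread between these samples, which may in part be technical.

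Mammalian Hox genes lie in 4 clusters on different chromosomes, and genes at matching places in the clusters form paralog groups that share a number. Low numbers are switched on early and far forward in the embryo, high numbers later and further back, an order that follows the order of the genes along each cluster. In the axial skeleton the middle paralog groups pattern the rib-bearing thorax, group 10 suppresses ribs in the lumbar region, group 11 acts in the sacrum and the middle segment of the limbs, and group 13 acts at the tail end, in digits and, for Hoxc13, in hair and nails. Skeletal cells keep much of this positional code after birth. Hox proteins bind DNA with partners of the TALE class, the Pbx, Meis and Pknox proteins, and Polycomb and Trithorax complexes hold the clusters silent or active.

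The promoters of 4 members are shown because these genes are among those with the largest differences between the control groups, 3 of them higher and 1 lower at E18.5. Each runs 5′ to 3′ on the gene's own strand from 250 bases before to 50 after the annotated start, read from RefSeq with build GRCm38.p6. Capitals mark matches on either strand to any of 4 motifs. The TATA box was searched as TATAAA. The site of Cdx factors, which activate Hox genes, was searched as TTTATG. The joint site of Hox and Pbx was searched as TGATNNAT. The site that a single retinoic acid receptor binds was searched as AGGTCA.
Hoxd4, chr2:74721728-74722027, plus strand: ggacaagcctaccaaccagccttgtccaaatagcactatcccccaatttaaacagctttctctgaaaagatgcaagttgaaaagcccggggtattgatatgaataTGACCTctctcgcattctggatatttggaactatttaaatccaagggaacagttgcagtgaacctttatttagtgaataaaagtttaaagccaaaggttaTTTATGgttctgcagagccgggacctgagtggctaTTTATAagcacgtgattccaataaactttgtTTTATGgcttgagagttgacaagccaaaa
Hoxb8, chr11:96281655-96281954, plus strand: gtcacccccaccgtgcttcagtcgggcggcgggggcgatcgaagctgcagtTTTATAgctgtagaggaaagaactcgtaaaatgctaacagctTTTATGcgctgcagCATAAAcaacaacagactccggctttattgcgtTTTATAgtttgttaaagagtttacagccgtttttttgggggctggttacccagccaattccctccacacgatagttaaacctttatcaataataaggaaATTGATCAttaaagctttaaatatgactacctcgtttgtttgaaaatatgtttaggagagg
Hoxa2, chr6:52164782-52165081, minus strand: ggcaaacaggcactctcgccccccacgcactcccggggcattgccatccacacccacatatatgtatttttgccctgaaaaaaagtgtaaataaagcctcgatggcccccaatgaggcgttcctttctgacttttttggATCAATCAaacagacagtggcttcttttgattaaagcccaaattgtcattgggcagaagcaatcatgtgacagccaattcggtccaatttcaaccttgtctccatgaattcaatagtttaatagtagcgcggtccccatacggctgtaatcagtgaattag
Hoxd9, chr2:74697513-74697812, plus strand: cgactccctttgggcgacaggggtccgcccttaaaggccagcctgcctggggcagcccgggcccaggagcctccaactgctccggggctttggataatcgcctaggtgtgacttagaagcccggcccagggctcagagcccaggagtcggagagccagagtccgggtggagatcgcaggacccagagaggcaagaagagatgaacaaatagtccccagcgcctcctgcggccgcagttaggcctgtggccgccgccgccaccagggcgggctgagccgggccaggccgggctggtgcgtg
The Hoxd4 window held 1 TATA box, 2 Cdx matches and 1 retinoid receptor match, and the Hoxb8 window held 2 TATA boxes, 2 Cdx matches and 1 Hox-Pbx match. The Hoxa2 window held 1 Hox-Pbx match, and none of the 4 motifs was found in the Hoxd9 window. Whether motifs went with the direction of the difference was not tested. The window of Hoxa9, also higher at E18.5, held no match, and a window of Hoxa10, lower at E18.5, held 1 TATA box. The table held 23 windows for 21 of the 37 members. Of these 23 windows, the TATA box was in 4, the Cdx site in 5, the Hox-Pbx site in 4 and the retinoid receptor site in 7, where 13.6%, 11.9%, 8.85% and 16.3% of all 32851 windows of the same length held them. Hox windows had a median GC content of 58% and 15 CpG pairs, against 52.7% and 7 over all windows. The Hoxd9 window had a GC content of 68.3% and the Hoxd4 window 39.7%. Matches of different motifs overlapped in 1 of the 23 windows. A match is a stretch of letters and not a measured binding site.

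Depth was even, with 26362407 to 28154143 expected counts per sample, and 3 counts, the floor used here, corresponded to 0.104 to 0.118 normalized counts per 1e6 counts (CPM); it covers counting error only. Ldha was at 894 ± 51.3 CPM (SD, n = 3) in the LDH controls and 91.8 ± 7.03 in the knockouts, and Acly at 187 ± 4.69 in its controls and 69.9 ± 18.8 in its knockouts. Ldhb, of which the knockouts had lost 1 allele, was at 12.4 ± 0.604 CPM in the LDH controls and 15.95 ± 1.16 in the knockouts. Markers of the labelled cell type were abundant as a sum: 12 chondrocyte genes, among them Col2a1 and Acan, summed to between 3756 and 10923 TPM (the deposited level scaled per transcript length) in every sample. Most of that sum was Col2a1, at group means from 2245 TPM in the Acly controls to 6969 in the LDH knockouts. Matn1 was low, at group means from 0.08 TPM in the LDH controls to 3.07 in the Acly knockouts. Matn3 had group means from 2.71 TPM in the LDH controls to 9.51 in the LDH knockouts. Y-linked transcripts were high, at 74.3 to 121 CPM, in 2 LDH controls, 2 Acly knockouts and 1 Acly control, and were at 2.83 CPM or less in the other samples, so that no LDH knockout sample was high. Muscle, fibroblast and endothelial markers differed between the 2 sets, with values given beside the comparison of the controls.

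Hox genes of the middle paralog groups, led by group 6, held most of the Hox signal of these rib chondrocytes. Levels between genes were compared in TPM, which is scaled per transcript length, and a gene was taken as expressed in a group at a mean of at least 1 TPM. By that measure 25 of the 37 genes were expressed in all 4 groups, 11 were below in all 4, and Hoxd4 passed only in the 2 Acly groups. The Hox genes together summed to 420 ± 15.1 TPM (SD, n = 3) in the LDH controls, 382 ± 62.6 in the LDH knockouts, 426 ± 7.48 in the Acly controls and 431 ± 28.2 in the Acly knockouts. The 5 genes with the highest mean over all 12 samples held 60.7% to 64.5% of that sum, depending on the group.

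Cluster c held the largest share of the summed Hox level in both control groups, 48.0% in the LDH controls and 41.9% in the Acly controls. It held 49.0% in the LDH knockouts and 37.5% in the Acly knockouts, where cluster a had more, at 42.7%. Hoxc6, a gene of the upper thorax, was the most abundant member in every group. It stood at 93.9, 89.6 and 95 TPM in the LDH controls, 82.4, 71.7 and 114 in the LDH knockouts, 98.5, 109 and 106 in the Acly controls and 74.8, 101 and 111 in the Acly knockouts. Each knockout group overlapped both control groups and had the wider spread. The Acly controls were all above the LDH controls in TPM, but not in the normalized counts used for the test below. Hoxc8, which patterns the lower ribs, was at 44.7, 49.5 and 42.7 TPM in the LDH controls and 38.8, 32.8 and 46.7 in their knockouts. In the Acly set the same gene was at 35.8, 36.2 and 37.3 in the controls and 28, 29.8 and 29.3 in the knockouts, with every Acly sample below every LDH control. Hoxc5 had 14.6, 17 and 15.1 TPM in the LDH controls, 15.8, 14.8 and 17.6 in the LDH knockouts, 10.3, 14 and 11.7 in the Acly controls and 9.76, 9.82 and 11.4 in the Acly knockouts. Hoxc9 and Hoxc4 lay close to it, at means over the 12 samples of 13.4 and 13 TPM against 13.5. At the far end of the cluster Hoxc10 stayed below 1 TPM on average and Hoxc11 near 0, and then Hoxc13 was back at 19.9 ± 5.17 TPM in the LDH controls.

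Cluster a held 37.3% of the summed level in the LDH controls and 39.8% in the Acly controls. Hoxa5, which patterns the cervical-to-thoracic transition, ranked after Hoxc6 in all 4 groups. Its levels were 60.8, 70.3 and 69.7 TPM in the LDH controls, 60.4, 50.8 and 67.7 in the LDH knockouts, 62.2, 57.7 and 65.2 in the Acly controls and 67.2, 78.6 and 65.2 in the Acly knockouts. The highest LDH control exceeded the lowest Acly knockout, so no set stood apart. Hoxa7, also a thoracic gene, was at 42.3, 37.3 and 46.6 TPM in the LDH controls, 40.2, 33.8 and 42.7 in the LDH knockouts, 39.3, 36 and 39.6 in the Acly controls and 36.6, 40.1 and 43.1 in the Acly knockouts. Hoxa4, a gene of the neck and upper trunk, had 19.1, 17.3 and 18.8 TPM in the LDH controls, 17.7, 16.4 and 22.2 in the LDH knockouts, 24.9, 22.9 and 19.5 in the Acly controls and 26, 27.5 and 26.3 in the Acly knockouts. Hoxa3 averaged 21.3 TPM over all samples, close to Hoxa4 at 21.5. Hoxa10, a lumbar gene that suppresses ribs, was below 1 TPM in every group, and Hoxa11 and Hoxa13 were near 0.

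Cluster b held 12.1% of the sum in the LDH controls and 16.4% in the Acly controls. Its leading gene by the mean over the 12 samples was Hoxb7, with 13, 14.1 and 12.9 TPM in the LDH controls, 10.4, 8.94 and 11.1 in the LDH knockouts, 15.2, 12.4 and 12.8 in the Acly controls and 14.4, 12.5 and 12 in the Acly knockouts. Every LDH knockout was below every LDH control. Hoxb2, best known from the hindbrain and above Hoxb7 in the mean of the Acly knockouts, was at 6.2, 7.24 and 7.64 TPM in the LDH controls, 8.29, 4.87 and 5.2 in the LDH knockouts, 14, 13.3 and 11.9 in the Acly controls and 17.9, 12.7 and 14.9 in the Acly knockouts. Hoxb4, a gene of the neck and upper trunk like Hoxa4, was at 5.26, 5.69 and 7.22 TPM in the LDH controls, 4.25, 4.41 and 4.24 in the LDH knockouts, 10.9, 10.1 and 8.17 in the Acly controls and 11.4, 12.6 and 13.1 in the Acly knockouts. All 6 Acly samples were above all 3 LDH knockouts for both genes. Hoxb1 was the only member of the cluster below 1 TPM in all 4 groups.

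Cluster d was the weakest, at 2.58% of the summed level in the LDH controls and 2.02% in the Acly controls. Hoxd8 had 4.81, 4.88 and 4.37 TPM in the LDH controls, 3.4, 4.21 and 5.35 in the LDH knockouts, 5.25, 6.97 and 4.68 in the Acly controls and 5.93, 4.91 and 5.21 in the Acly knockouts. Hoxd9, which acts in the lumbosacral region and the limbs, had 4.46, 5.75 and 6.08 TPM in the LDH controls, 3.44, 3.54 and 6.1 in the LDH knockouts, 1.35, 1.03 and 0.84 in the Acly controls and 1.07, 2.41 and 0.98 in the Acly knockouts. Hoxd4 was at 0.59, 0.36 and 0.32 TPM in the LDH controls, 0.46, 0.38 and 0.39 in the LDH knockouts, 1.32, 1.16 and 0.94 in the Acly controls and 1.68, 1.42 and 1.04 in the Acly knockouts. Hoxd8 did not separate the sets, whereas Hoxd9 was lower and Hoxd4 higher in every Acly sample than in every LDH sample. Hoxd3 was at 0.69 TPM or less in every group mean, and Hoxd1, Hoxd10, Hoxd11 and the digit gene Hoxd13 were near 0 throughout.

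By paralog group, group 6 was the most abundant, with 24.6% of the summed level in the LDH controls and 27.2% in the Acly controls, followed by group 5 with 20.4% and 18.6%. Group 7 held 13.2% and 12.1%, and group 8 held 12.3% and 10.6%. Group 9 had 7.03% in the LDH controls and 4.74% in the Acly controls. The rib-suppressing group 10 held 0.333% and 0.136%, and group 11 held 0.0984% and 0.00313%. Group 13 made up 5.43% in the LDH controls and 0.672% in the Acly controls, most of it from Hoxc13. Toward the front, group 2 held 2.61% in the LDH controls and 5.16% in the Acly controls, group 3 had 4.04% and 8.96%, and group 4 had 8.79% and 11.03%.

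**Figure D1:**
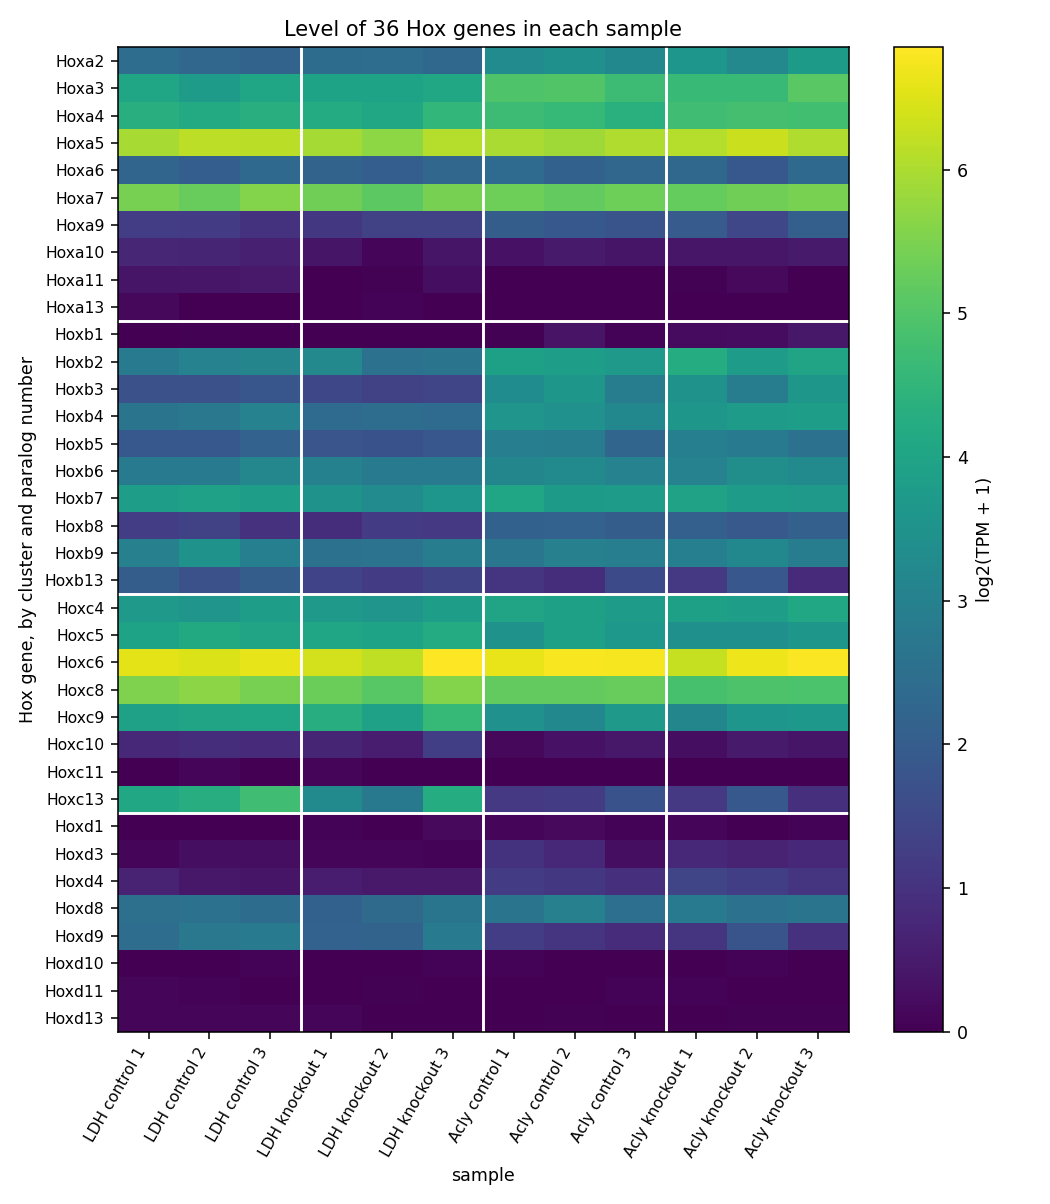
Level of 36 Hox genes, as log2(TPM + 1), with genes in rows ordered by cluster and paralog number and the 12 samples in columns; white lines part the clusters and the groups. Hoxc6 and Hoxa5 are the brightest rows in all samples, genes of groups 10 and 11 are dark throughout, and Hoxc13 is bright only in the 6 LDH samples.

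In the RefSeq gene list, 10 members span ground that another member also spans: Hoxa3 with Hoxa4, Hoxa5 and Hoxa6, Hoxb3 with Hoxb4, Hoxd3 with Hoxd4, and Hoxd10 with Hoxd11. How reads in shared stretches were assigned, and whether strand was used, is not given in the sources used here, so the values of these genes are uncertain to that extent. No row carried the symbol Hoxc12 or Hoxd12, or that of any of 14 noncoding and antisense transcripts of the clusters that were looked for, so none was analysed here.

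The 2 control groups were compared first, which asks how the Hox profile differed between rib chondrocytes at E18.5 and at P5. Of 29 Hox genes tested, 21 passed an adjusted p of 0.05 (edgeR's quasi-likelihood test with Benjamini-Hochberg adjustment over all 14251 genes tested), 10 higher and 11 lower at E18.5. Over all genes tested 55.0% passed, 29.4% higher and 25.7% lower. The count of 21 of 29 is to be read beside that. Groups did not overlap for 7 higher and 11 lower Hox genes, where 65.4% of all genes tested did not overlap. The median log2 difference was 0.03 over the Hox genes and 0.017 over all genes. Age, mouse line and any preparation batch coincide with the 2 sets and cannot be told apart.

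The direction differed along the clusters. Of the 13 genes tested in paralog groups 1 to 5, 8 were higher and 2 lower at E18.5, with a median log2 difference of 0.69. Of the 8 in groups 6 to 8, 1 was higher and 2 lower, with a median of -0.03. Of the 8 in groups 9 to 13, 1 was higher and 7 lower, with a median of -1.20. Across the 29 genes the log2 difference and the paralog number had a Spearman correlation of -0.62 and a Pearson correlation of -0.65, and -0.53 and -0.52 over the 27 genes left without group 13. These correlations are descriptions, since the genes share the same 6 libraries and neighbours in a cluster are not independent.

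**Figure D2:**
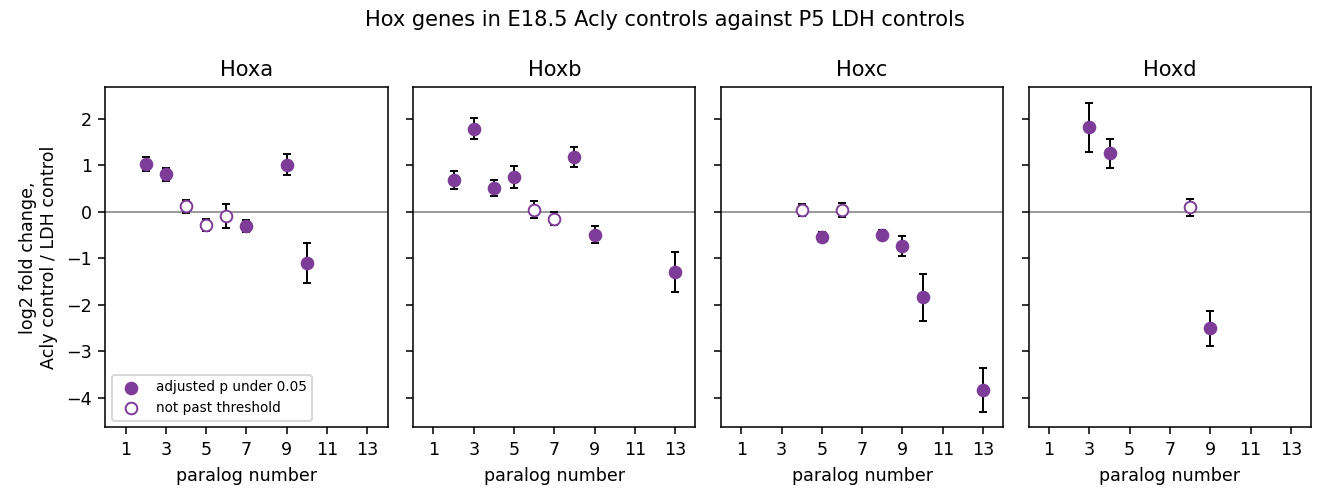
Log2 fold change of the tested Hox genes but 1, Acly controls at E18.5 over LDH controls at P5, against paralog number, with 1 panel per cluster; whiskers are standard errors and filled points passed an adjusted p of 0.05. Points lie above 0 for groups 2 and 3 and mostly below 0 from group 9 on, with Hoxa9 and Hoxb8 as points above 0 among the higher numbers.

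Among the forward genes, Hoxb3 had one of the largest rises. It had 3.8, 3.67 and 4.58 normalized CPM in the LDH controls and 14.6, 16.9 and 10.05 in the Acly controls, a log2 fold change of 1.79 (SE 0.22, edgeR adjusted p = 2.04e-05), and the groups did not overlap. Hoxd3 had 0.149, 0.299 and 0.316 normalized CPM in the LDH controls and 1.46, 0.973 and 0.284 in the Acly controls, a log2 fold change of 1.81 (SE 0.53, edgeR adjusted p = 0.0102). Acly control replicate 3 lay inside the range of the LDH controls, and without Acly control replicate 1 the difference was 1.29 with an adjusted p of 0.0669. Hoxa2, which patterns the second pharyngeal arch, had 4.21, 3.48 and 3.55 normalized CPM in the LDH controls and 7.85, 8.06 and 7.0 in the Acly controls, a log2 fold change of 1.02 (SE 0.16, edgeR adjusted p = 0.000137). Hoxd4 had 0.821, 0.487 and 0.474 normalized CPM in the LDH controls and 1.7, 1.39 and 1.17 in the Acly controls, a log2 fold change of 1.25 (SE 0.31, edgeR adjusted p = 0.00422). Both genes were higher in every Acly control than in every LDH control, and both promoters are among those printed above. Hoxa3, Hoxb5, Hoxb2 and Hoxb4 were also higher, at log2 differences of 0.80, 0.75, 0.69 and 0.51, while Hoxc5 was lower, at -0.55. The call of Hoxb5 was lost without LDH control replicate 1 or 2 or Acly control replicate 1 or 2, and that of Hoxb4 without LDH control replicate 1 or 2 or Acly control replicate 1.

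Of the 8 genes tested in groups 6 to 8, 5 were not called. These were Hoxc6, Hoxa6, Hoxb6, Hoxb7 and Hoxd8, at log2 differences between -0.15 and 0.09. Of the genes counted above in groups 1 to 5, Hoxa4 at 0.12, Hoxa5 at -0.28 and Hoxc4 at 0.04 were not called either. Hoxa5 passed without LDH control replicate 1 or Acly knockout replicate 2. Hoxc8 and Hoxa7 were lower, at -0.49 (SE 0.11) and -0.30 (SE 0.12); the call of Hoxa7 was lost without any 1 Acly control, LDH control replicate 1 or 3, LDH knockout replicate 1 or 3, or Acly knockout replicate 3, under total counts, with limma on FPKM and with the stricter filter of a mean of at least 1 CPM. Hoxb8 was the 1 gene of groups 6 to 8 that was called higher. It had 1.72, 1.83 and 1.34 normalized CPM in the LDH controls and 3.91, 3.75 and 3.44 in the Acly controls, a log2 fold change of 1.18 (SE 0.21, edgeR adjusted p = 0.00038), and every Acly control was at least as high as 3.44 CPM where no LDH control passed 1.83.

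Of the rearward genes that were tested, 7 of 8 were lower at E18.5, and Hoxc13 by the most. It had 20.9, 23.2 and 35.8 normalized CPM in the LDH controls and 1.46, 1.46 and 2.73 in the Acly controls, a log2 fold change of -3.82 (SE 0.48, edgeR adjusted p = 2.29e-05). Hoxd9 had 5.04, 6.33 and 7.26 normalized CPM in the LDH controls and 1.42, 1.01 and 0.852 in the Acly controls, a log2 fold change of -2.5 (SE 0.37, edgeR adjusted p = 9.68e-05). For both genes the lowest LDH control was well above the highest Acly control. Hoxc10 had 0.746, 0.861 and 0.829 normalized CPM in the LDH controls and 0.107, 0.243 and 0.32 in the Acly controls, a log2 fold change of -1.84 (SE 0.51, edgeR adjusted p = 0.00805). Hoxb13, a gene of the tail end, had 2.09, 1.5 and 2.25 normalized CPM in the LDH controls and 0.675, 0.521 and 1.17 in the Acly controls, a log2 fold change of -1.3 (SE 0.43, edgeR adjusted p = 0.0216). Hoxa10 had 0.783, 0.823 and 0.671 normalized CPM in the LDH controls and 0.284, 0.452 and 0.32 in the Acly controls, a log2 fold change of -1.1 (SE 0.42, edgeR adjusted p = 0.0408). These 3 genes were low, and the calls of Hoxb13 and Hoxa10 depended on single libraries: Hoxb13 was not called without LDH control replicate 1 or 3 or Acly control replicate 1 or 2, and Hoxa10 was not called without any 1 of the 6 controls, with DESeq2, under total counts or without the filter on low counts. Hoxc9 and Hoxb9 were lower too, at -0.73 (SE 0.21) and -0.49 (SE 0.18), the call of Hoxb9 being lost without LDH control replicate 2 or any 1 Acly control, under total counts and with limma on FPKM. Hoxa9 was the exception, with 2.35, 2.17 and 1.82 normalized CPM in the LDH controls and 4.97, 3.99 and 3.8 in the Acly controls, a log2 fold change of 1.01 (SE 0.23, edgeR adjusted p = 0.00232), and no overlap. Hoxa11 was below the filter on low counts, with 34 counts over the 3 LDH controls and 0 over the 3 Acly controls. Against a floor of 3 counts over the whole group, not per sample as elsewhere, the ratio of Hoxa11 in the LDH controls was 10.8, given without an error. With 0 counts in the Acly controls, that ratio depends on the floor and is not a measured fold change. The LDH knockouts, also at P5, had 0, 1 and 6 counts where their controls had 10, 11 and 13. The Acly knockouts had 1, 4 and 0. The other 7 untested members reached at most 11 counts in any sample.

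**Figure D3:**
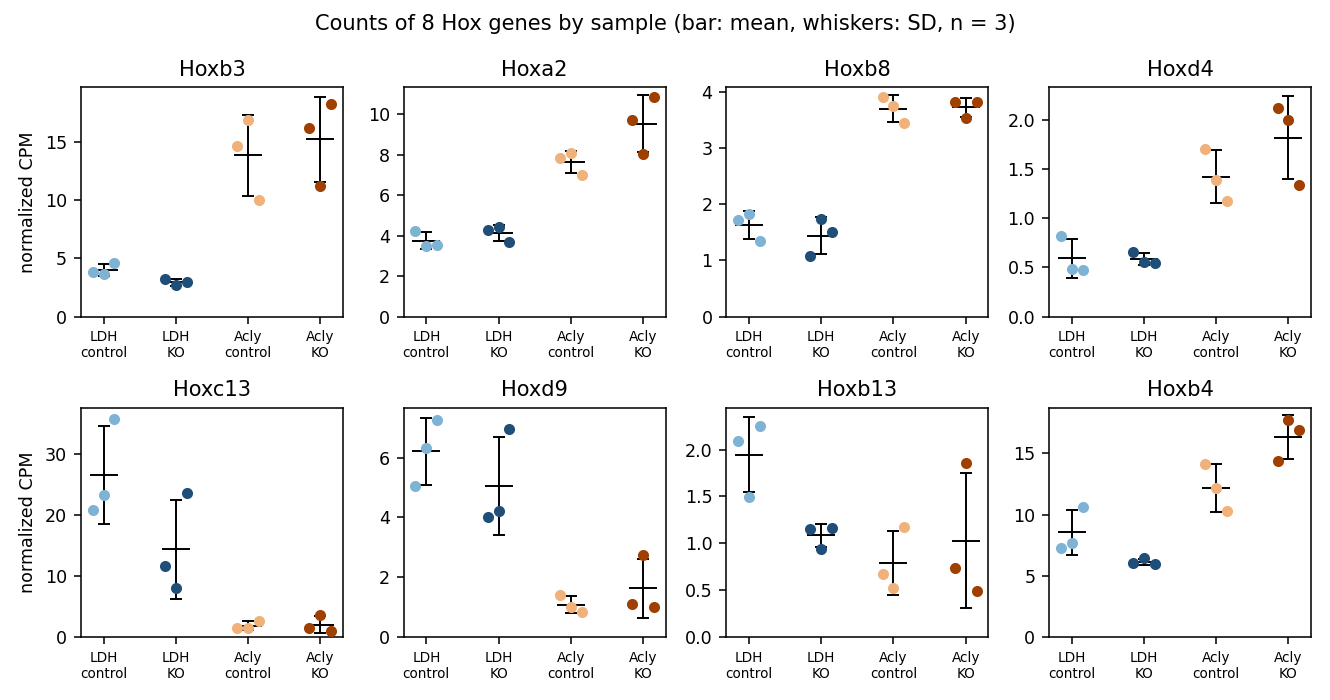
Normalized CPM of 8 Hox genes in each of the 12 samples, by group; bars are group means and whiskers the SD (n = 3). Hoxb3, Hoxa2, Hoxb8 and Hoxd4 are higher in both Acly groups, Hoxc13 and Hoxd9 are higher in both LDH groups, and Hoxb4 is lower in the LDH knockouts and higher in the Acly knockouts than in their own controls.

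Leaving out the samples with a high Y-linked signal, chosen after seeing the data, left 1 LDH control against 2 Acly controls, and 12 Hox genes passed, 6 in each direction and 11 of them among the 21. A lone sample is there assumed to vary like the other groups.

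Markers of other cell types differed between the same 2 control groups, and their part in the Hox differences was not tested. The 12 skeletal muscle markers were all higher at E18.5 and summed to 494 to 603 TPM in the Acly controls against 33.0 to 61.8 in the LDH controls. Fibroblast and perichondrial markers were higher for 9 and lower for 1 of 10, with sums of 2054 to 2605 against 420 to 770 TPM. All 6 endothelial markers were higher, with sums of 54.5 to 59.7 against 5.41 to 9.38 TPM. Adipocyte markers summed to 158 to 209 against 23.0 to 31.2 TPM, with 6 of 7 tested higher, osteoblast markers to 358 to 482 against 197 to 286, with 5 of 7 higher, and red blood cell markers to 262 to 342 against 76.6 to 126, with 3 of 4 higher. Neuronal and glial markers summed to 28.9 to 31.1 against 9.79 to 12.7 TPM, with 2 of 5 higher, and macrophage sums overlapped, although 4 of 6 were higher and 1 lower. Of the 12 chondrocyte markers 7 were higher and 1 lower at E18.5, with a median log2 difference of 0.68, while their sum was 3756 to 4497 TPM in the Acly controls and 4312 to 4875 in the LDH controls. The 5 keratinocyte markers summed to 2.82 to 3.06 TPM in the LDH controls and to 4.23 to 6.44 in the Acly controls, with 2 of 4 tested higher at E18.5. Most of the LDH control sum was Krt10, at a mean of 2.38 TPM against 1.94 in the Acly controls. In bulk samples fewer cells of a type and less RNA per cell cannot be told apart.

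The genes that work with the Hox proteins differed in part between the controls. Of 8 TALE cofactors tested, 7 were higher at E18.5 and none lower. Pknox2, Pbx2 and Meis2 were among those higher, at log2 differences of 1.42, 0.51 and 0.50. Of 28 Polycomb genes, 7 were higher and 8 lower; with total counts in place of the scaling factors the split was 9 higher and 4 lower. Cbx2, a subunit that reads the Polycomb histone mark, and Jarid2 and Phf19, which recruit the complex, were higher at 1.3, 0.91 and 1.29, and Cbx7, a relative of Cbx2, was lower at -1.17. Of 13 Trithorax and demethylase genes, 4 were higher and 4 lower, or 4 and 2 with total counts. Ash2l and Kdm6b, the latter an eraser of the Polycomb mark, were higher at 0.51 and 0.45, and Wdr5 and Kmt2b lower at -0.50 and -0.45.

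Upstream of the clusters, 3 of 5 tested regulators of the head-to-tail axis were higher at E18.5 and none lower. Cyp26b1, which breaks down retinoic acid, was higher at 1.47 (SE 0.16), Rara, a retinoic acid receptor, at 0.98 (SE 0.13) and Gdf11, a signal of the posterior trunk, at 1.48 (SE 0.26). Of 9 genes that flank the clusters, 1 was higher (Mtx2, 0.24) and 2 lower (Smug1, -0.57, and Atp5g1, -0.58), or 4 and 2 with total counts. Among 18 homeobox genes of the skeleton outside the clusters, 9 were higher and 3 lower, led by Prrx2 (2.44), Alx4 (2.59) and Pitx1 (2.5) among the higher and Msx2 (-1.79) among the lower. Of 17 axial, limb and body wall patterning genes, 9 were higher and none lower, among them Meox1 (1.93), Tbx2 (2.12), Tbx5 (1.74) and Hand2 (4.42). These counts stand beside 29.4% of all genes higher and 25.7% lower.

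In the LDH knockout no Hox gene passed the threshold, and most differences were small and below 0. Of 28 Hox genes tested with edgeR's quasi-likelihood test, 0 were called at an adjusted p of 0.05, 7 had an unadjusted p under 0.05 where 19.6% of all genes did, and DESeq2 called 0. Over all 13321 genes tested, 2.49% were called, 1.43% higher and 1.07% lower. The median log2 difference of the Hox genes was -0.12 against 0.005 over all genes, and 8 of 28 lay above 0 where 51.0% of all genes did. No Hox gene was higher without overlap, and 6 were lower in every knockout than in every control, where 24.3% of all genes did not overlap in either direction. Of those 6, Hoxb3, Hoxb4, Hoxb7, Hoxb9 and Hoxb13 belong to cluster b and Hoxa10 to cluster a. All 9 tested genes of cluster b were below 0, and 8 or 9 of them in each of 17 alternative fits. The 3 tested genes of cluster d were below 0 too, as were 5 of 9 in cluster a and 3 of 7 in cluster c. Neighbours in a cluster are not independent.

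Hoxb13 had the lowest p of the Hox genes. It had 2.09, 1.5 and 2.25 CPM in the controls and 1.15, 0.944 and 1.16 in the knockouts, a log2 fold change of -0.84 (SE 0.27, edgeR adjusted p = 0.129). Hoxb9, which patterns the lower ribs together with its paralogs, had 10.1, 14.6 and 10.6 CPM in the controls and 7.35, 7.83 and 9.27 in the knockouts, a log2 fold change of -0.53 (SE 0.17, edgeR adjusted p = 0.13). For Hoxb7 the values were 8.65, 9.17 and 9.12 CPM in the controls and 7.15, 6.25 and 7.41 in the knockouts, a log2 fold change of -0.37 (SE 0.13, edgeR adjusted p = 0.163). Hoxb4 had 7.31, 7.71 and 10.6 CPM in the controls and 6.08, 6.45 and 5.93 in the knockouts, a log2 fold change of -0.47 (SE 0.17, edgeR adjusted p = 0.169). In these 4 genes the groups did not overlap, yet none passed the threshold. Hoxc13 had 20.9, 23.2 and 35.8 CPM in the controls and 11.6, 8.1 and 23.6 in the knockouts, a log2 fold change of -0.89 (SE 0.34, edgeR adjusted p = 0.194). Knockout replicate 3 lay among the controls, and without it Hoxc13 passed at -1.43 with an adjusted p of 0.0134. Without knockout replicate 2 the estimate was -0.59, and over 17 alternatives it lay between these 2 values. The gene passed in 2 of those 17, the fit without knockout replicate 3 and the one with a replicate block. Knockout and control differed in Y-linked signal, high in 2 of 3 controls and in no knockout. With it as a covariate no Hox gene passed either, but that fit set the knockouts mainly against the 1 control with low signal. It therefore cannot decide whether the Hox values depend on that signal.

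Chondrocyte markers summed to 7636 to 10923 TPM in the LDH knockouts against 4312 to 4875 in their controls, with 8 of 11 tested called higher and none lower. Adipocyte markers summed to 57.9 to 134.7 TPM against 23.0 to 31.2, with 4 of 6 called higher, and osteoblast markers to 40 to 112 TPM against 197 to 286, with 2 of 6 called lower. Their part in the Hox values was not tested. Of the pathway lists, edgeR called none of 8 TALE cofactors, 28 Polycomb genes, 13 Trithorax and demethylase genes, 9 flanking genes, 5 axis regulators, 16 skeletal homeobox genes and 15 patterning genes. At an unadjusted p under 0.05 there were 1, 4, 3, 1, 0, 3 and 5 of them in that order, beside 19.6% of all genes, and DESeq2 called 0, 1, 0, 0, 0, 2 and 3.

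In the Acly knockout no Hox gene passed either, and most differences lay above 0. Of 28 Hox genes tested, 0 were called by edgeR, 3 had an unadjusted p under 0.05 where 15.8% of all genes did, and DESeq2 called 0. Over all 13973 genes tested, 0.136% were called, 0.0573% higher and 0.0787% lower. The median log2 difference of the Hox genes was 0.17 against -0.0018 over all genes, and 23 of 28 lay above 0 where 49.7% of all genes did. Without overlap, 3 Hox genes were higher and 1 lower, where 22.1% of all genes did not overlap. All 9 tested genes of cluster b were above 0 in this fit, but between 6 and 9 were over 17 alternative fits, with 7 under total counts. The 4 tested genes of cluster d were above 0 too, as were 7 of 9 in cluster a and 3 of 6 in cluster c.

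Hoxb4 had the lowest p here. It had 14.1, 12.2 and 10.3 CPM in the controls and 14.4, 17.7 and 16.9 in the knockouts, a log2 fold change of 0.44 (SE 0.16, edgeR adjusted p = 0.266). Hoxa4, its paralog in cluster a, had 18.8, 16 and 14.2 CPM in the controls and 19.2, 22.6 and 19.8 in the knockouts, a log2 fold change of 0.35 (SE 0.14, edgeR adjusted p = 0.295). Hoxa5 had 58.4, 50.1 and 59.1 CPM in the controls and 61.5, 80.2 and 60.9 in the knockouts, a log2 fold change of 0.29 (SE 0.13, edgeR adjusted p = 0.327). All 3 were higher in every knockout than in every control. For Hoxa5 the lowest knockout was close to the highest control. Hoxc8 was the gene that lay lower, with 42.8, 39.98 and 43.1 CPM in the controls and 32.6, 38.7 and 34.8 in the knockouts, a log2 fold change of -0.23 (SE 0.10, edgeR adjusted p = 0.314). Hoxa2 overlapped, with 7.85, 8.06 and 7.0 CPM in the controls and 9.69, 8.04 and 10.9 in the knockouts, a log2 fold change of 0.33 (SE 0.15, edgeR adjusted p = 0.328). Hoxc13, the gene that differed most between the controls, had 1.46, 1.46 and 2.73 CPM in the controls and 1.45, 3.6 and 1.1 in the knockouts, a log2 fold change of 0.14 (SE 0.47, edgeR adjusted p = 0.893).

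**Figure D4:**
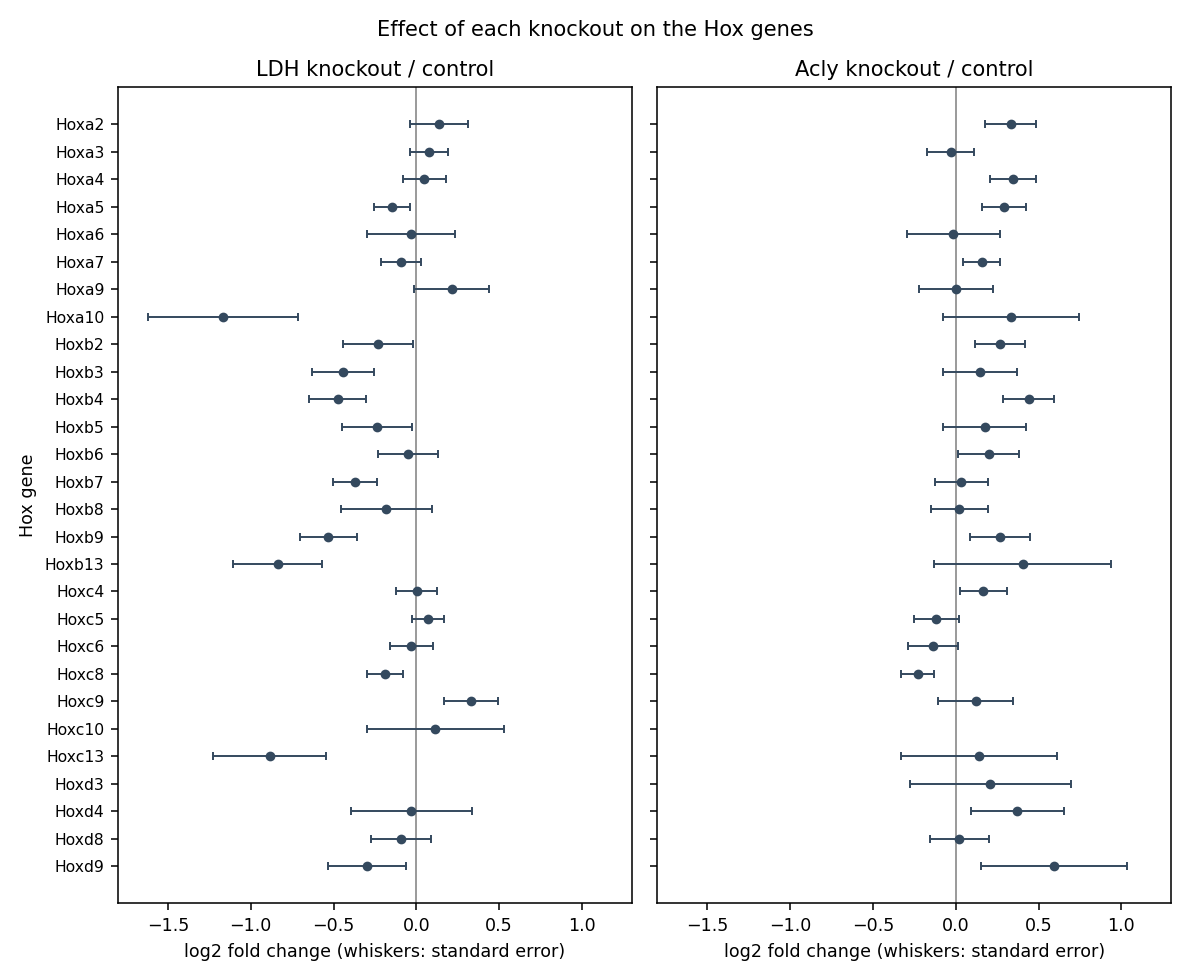
Log2 fold change of the tested Hox genes but 1 in the LDH knockout (left) and the Acly knockout (right), each against its own control; points are edgeR estimates and whiskers standard errors. The 9 genes of cluster b lie below 0 on the left and above 0 on the right. The tested genes of cluster d do the same, 3 on the left and 4 on the right. No gene in either panel passed an adjusted p of 0.05.

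Chondrocyte markers summed to 6341 to 7189 TPM in the Acly knockouts against 3756 to 4497 in the controls, with 2 of 12 called higher, and fibroblast markers to 721 to 1831 TPM against 2054 to 2605, with 0 of 10 called. Osteoblast markers summed to 201 to 294 TPM against 358 to 482, with 0 of 7 called, and macrophage markers to 182 to 212 against 152 to 181, with 0 of 6 called. Their part in the Hox values was not tested here either. EdgeR called none of 8 TALE cofactors, 28 Polycomb genes, 13 Trithorax and demethylase genes, 9 flanking genes, 5 axis regulators, 17 skeletal homeobox genes and 17 patterning genes. At an unadjusted p under 0.05 there were 0, 11, 2, 1, 0, 4 and 4 in that order, beside 15.8% of all genes, and DESeq2 called only 2 patterning genes.

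Whether the 2 knockouts differed in their effect on the Hox genes was tested as the LDH effect minus the Acly effect in a fit of all 12 samples. By edgeR 0 of 29 Hox genes were called, 4 had an unadjusted p under 0.05 where 1855 of all 14251 genes did, and DESeq2 called 1, Hoxb4. Over all 14251 genes tested, 0.161% passed. The median difference of effects was -0.29 over the Hox genes against 0.03 over all genes, and 6 of 29 lay above 0 where 54.2% of all genes did. All 9 genes of cluster b were below 0, in each of 20 alternative fits as well. Over those fits 6 to 8 genes of cluster a, 2 to 5 of cluster c and 3 or 4 of cluster d were below 0. The fits reuse the same samples, and neighbours in a cluster are not independent. The lowest p was that of Hoxb4, at -0.90 (SE 0.23, edgeR adjusted p = 0.17), and Hoxb9 followed at -0.78 (SE 0.26, adjusted p = 0.268). Hoxa10 stood at -1.48 (SE 0.62, edgeR adjusted p = 0.337), Hoxa5 at -0.42 (SE 0.18, 0.343) and Hoxb13 at -1.22 (SE 0.62, 0.417). The estimate of Hoxa10 rests on low counts, 12, 3 and 11 in the LDH knockouts. The gene deleted and the age coincide in this contrast and cannot be told apart.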

How the data were processed

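RNA was measured in 12 samples in 4 groups of 3, taken from the sample titles. A single table was used, with 17922 genes in rows. Its values are read counts, FPKM and TPM for every sample, per the file headers, and the authors' group averages beside them were left out. In each sample 7.32% to 8.16% of the deposited counts have a fraction, so the column was treated as estimated (expected) counts and rounded; the counts of all 37 Hox genes are whole. How the authors obtained the estimated counts they deposited is recorded neither in the labels nor in the header. The submitters' processing notes name HISAT2 2.0.4 and mm9 with no role, and the counting program is not given in the sources used here. The deposited TPM values were used for levels, and the deposited FPKM values for an alternative test. The labels give 1 collagenase concentration and the series' design text another, so none is printed.

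Counts were tested with edgeR 4.0.16 in R 4.3.3 (TMM, filterByExpr, two-sided quasi-likelihood F tests, Benjamini-Hochberg adjustment over all genes tested, threshold 0.05). Each knockout was fitted with its own control, and the contrast of the controls and the difference of effects with all 12 samples. CPM values are TMM-normalized over 12 samples. The standard error is the log2 fold change divided by the square root of F. Alternatives used DESeq2 1.42.0, limma 3.58.1 on log2(FPKM + 0.1) or log2(FPKM + 1), other scalings and filters, a replicate block, a Y-linked covariate and left-out samples. The test was checked on simulated data.

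The Hox genes and the gene lists were chosen with earlier results of these data known. Values per sample are given for the 3 members of each cluster with the highest mean TPM, for the 5 lowest p-values of each knockout comparison (none passed), and for the 6 largest rises and 6 largest falls between the controls; other members, such as Hoxc13 in the Acly set, were named after their values were seen. From each pathway list, up to 4 genes past the threshold are named. Of the genes these rules choose, 1 Hox gene, also left out of the plots, and 1 cofactor are not reported here; both stay in the fits and counts. Coordinates are printed only for RefSeq promoters, on GRCm38.p6, since the notes name another build; all 37 identifiers were found there. Counts differed by more than sampling noise in all 66 pairs of samples (lowest chi-square per degree of freedom 11.3).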

Additional observations from a re-analysis of the deposited data

Results flagged for a closer look

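Hoxb4 was flagged because it lay on opposite sides of its controls in the 2 knockouts, each without overlap. The lack of overlap is therefore the reason for the choice and no separate support. Of all genes tested, 24.3% did not overlap in the LDH comparison and 22.1% in the Acly comparison, in either direction. The share of all genes on opposite sides was not computed. The LDH effect minus the Acly effect was -0.895 on the log2 scale (SE 0.23), lower in 3 of 3 LDH knockouts than in every LDH control and higher in 3 of 3 Acly knockouts than in every Acly control. The test of this difference did not pass with edgeR, at an adjusted p of 0.170, with values from 0.0272 to 0.375 over 20 alternatives; DESeq2 gave -0.93 with an adjusted p of 0.0272. Its span overlaps that of Hoxb3 in RefSeq, and how reads were shared between them is not given in the sources used here.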

How the results depend on the processing

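Of the Hox genes chosen by the rule for a comparison, none changed direction there under the alternatives run. Hoxc13 in the Acly knockout, described outside that rule, lay below 0 in 5 of 17 alternatives and ranged from -0.56 to 0.51, with no call. The same replicate numbers in different groups did not pair the samples: same-numbered samples correlated between -0.19 and 0.10 in their deviations from the group means, and not every sample correlated best with its own number. With the replicate block the LDH knockout comparison called 1 Hox gene, Hoxc13 at -0.98 with an adjusted p of 0.0224, the Acly comparison 0, the controls 21 and the difference of effects 0. Leaving out 1 sample at a time gave 0 to 2 called in the LDH comparison, 0 in the Acly comparison, 15 to 23 between the controls and 0 for the difference of effects. Of the 5 genes chosen by the rule in the LDH comparison, only Hoxc13 passed in any alternative. A further call there was of a member outside those 5. Leaving out samples with a high Y-linked signal, an alternative chosen after seeing the data, gave 12 between the controls, and DESeq2 called 1 for the difference of effects. The cause of these changes was not tested, apart from the smaller number of samples. Between the controls, 11 named genes gave 219 values on the same side of the threshold and 18 that no longer passed, all of Hoxa10, Hoxb13, Hoxd3 and Hoxc10. Total counts in place of TMM gave 18 called, 10 higher and 8 lower, and no called gene changed direction; it put the median log2 difference of all genes tested at 0.19, against 0.02 with TMM. At this depth a member with 3 counts or fewer in a sample could not be told from background.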
